A study of Homo sapiens with 21 samples.

Results

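MYC-silenced BT-549 mammospheres were set against the same cell line growing as 2D monolayers. BT-549 is an established human triple-negative breast cancer (TNBC) line, that is, one without the estrogen, progesterone and HER2 receptors. The comparison takes 3 libraries of mammospheres at the 8th serial passage (S8) that carried a doxycycline (DOX)-inducible MYC shRNA and received 500 ng/ml DOX, and 3 libraries of untransduced 2D cells, out of 21 RNA-seq libraries in all. A further pair of groups with 3 libraries each defines what a mammosphere feature is: untransduced mammospheres at the 6th passage (3D cells, with no drug), and the S8 tet-MYCshRNA mammospheres given 0.1% DMSO as vehicle. The labels give the genotype of all of these cells as wild type. In a few places a second DOX-treated line is set beside them, mammospheres at the 6th passage (S6) with a DOX-inducible MUC1 shRNA. These received 0.1% DMSO as vehicle or 500 ng/ml DOX, with 3 libraries each. 2D cells grew attached in RPMI1640 with serum and insulin, whereas mammospheres grew in MammoCult medium on ultra-low attachment plates.

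MYC is a transcription factor that, paired with MAX, binds E-box sequences and drives genes of ribosome production, nucleotide synthesis, metabolism and cell division. In many cell types it also restrains genes of the interferon response. Growth as mammospheres selects for cells that survive and divide without attachment, and serial passage is used to enrich for cells with properties of cancer stem cells.

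The count totals were 43861798 to 57993265 per 2D library and 49301581 to 65821756 per MYC-silenced library. ESR1 and PGR were below 1 CPM in every group mean, while ERBB2, which encodes HER2, had group means of 19.9 to 35.7 CPM. The summed luminal epithelial markers were at 6.79 to 7.51 CPM in 2D cells and below 1 CPM in MYC-silenced mammospheres, and the summed leukocyte markers stayed below 2 CPM. Of the 5 mesenchymal markers, VIM, ZEB1, AXL and FN1 were above 90 CPM in every group mean, FN1 going from 448 CPM in 2D cells to 12430.0 CPM with DOX, whereas CDH2 went from 439 to 25.9 CPM. Endothelial markers summed to 1.04 to 1.73 CPM in 2D cells and 10.4 to 12.1 CPM in MYC-silenced mammospheres, with CDH5 at 0 in both. PECAM1 went from 0.0113 to 9.33 CPM, KDR from 0.0115 to 1.40 CPM, VWF from 0.0828 CPM to 0 and TEK from 1.27 to 0.477 CPM, and their part in the results was not tested. Pairs of MYC-silenced libraries gave a chi-square over its degrees of freedom of 17.2 to 45.6, against 7.67 to 18.5 for pairs within the other 3 groups. Culture format, medium, passage, transduction with the shRNA vector, DOX and the block of the count table all differed between the compared groups and cannot be told apart in that comparison. DOX without an shRNA was not measured, a single MYC shRNA was used, and the 3 libraries of a group come from cells cultured in triplicate, per the study's methods, so p-values measure the spread between such cultures.

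To find which mammosphere features MYC silencing left in place, all 4 groups were fitted together and a gene was called at an adjusted p below 0.1 and a log2 fold change beyond 1.5 (edgeR's quasi-likelihood test, Benjamini-Hochberg over 21506 genes). MYC-silenced mammospheres differed from 2D cells in 4003 genes (18.6% of those tested), of which 2275 were higher (10.6%) and 1728 lower (8.03%). Vehicle-treated mammospheres differed from 2D cells in 3827 genes (17.8%). A mammosphere feature was a gene called in the same direction in 3D cells and in vehicle-treated mammospheres, each against 2D cells. There were 2694 features (12.5% of the genes tested), 1290 above (6%) and 1404 below (6.53%) the 2D level. All of these comparisons share the 2D libraries, and the vehicle libraries entered both the choice of features and the difference between DOX and vehicle. The class of a gene was set by its difference from 2D cells, so that value describes a class member and is not a separate test of it.

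Most of the mammosphere program remained. Of the 2694 features, 2001 (74.3%) were still called in the same direction in MYC-silenced mammospheres. Over all genes tested, the classes that remained, returned and overshot made up 9.3%, 0.591% and 0.107%. Another 478 (17.7%) lay between the 2D level and the threshold. A further 127 (4.71%) returned to the 2D level, defined as a 95% interval of the difference from 2D cells that fits inside a 2-fold band. Another 23 (0.854%) overshot, that is, passed to the other side of the 2D level by more than 2-fold with an adjusted p below 0.1, and 65 (2.41%) could not be placed, a count that was 107 without DOX library 3. The 2-fold limit of the overshoot applies to the estimate, and the 95% interval lay wholly beyond it for 2 of the 23. By direction, 1084 of 1290 (84%) remained above it and 917 of 1404 (65.3%) remained below it, while 25 returned from above and 102 from below. The median log2 difference from 2D cells was 2.699 with vehicle and 2.78 after MYC silencing for the features above, and -2.88 and -2.08 for those below. Here genes with at most 3 counts in every library of 1 group were set to the difference that 3 counts per library would give. In addition, 120 genes left the 2D level upward on MYC silencing and 83 left it downward (0.944% of all genes). For these, the 95% interval of the difference between vehicle and 2D cells fitted inside the 2-fold band. With DOX they were called against 2D cells and, in the same direction, against vehicle.

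**Figure D1:**
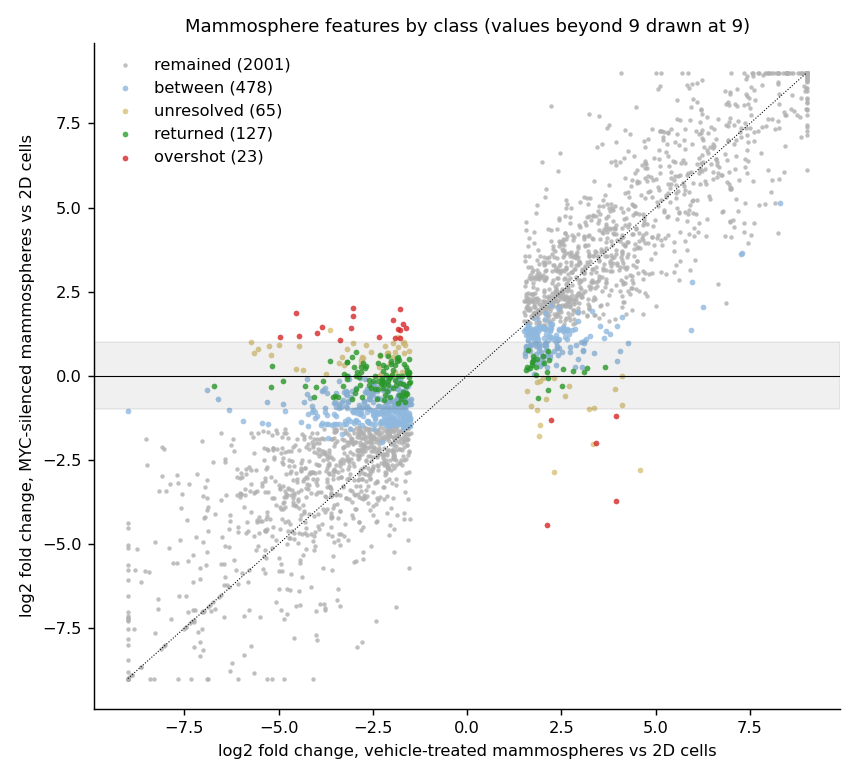
Log2 fold change against 2D cells of the 2694 mammosphere features, with vehicle-treated mammospheres on the x axis and MYC-silenced mammospheres on the y axis; each point is a gene, colored by class, the dotted line marks equal values and the grey band a 2-fold difference from 2D cells, and values beyond 9 are drawn at 9. Of the 2001 genes that remained, 1150 differed between DOX and vehicle at an adjusted p below 0.1 and 471 also by more than 1.5 on the log2 scale, off the line of equal values, and the 102 that returned from below outnumber the 25 that returned from above.

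MYC itself (chr8:127735434-127742951, GRCh38) was a feature that remained. It was at 89.9, 86.8 and 77.8 CPM in 2D cells, 587, 552 and 599 CPM in 3D cells, 437, 415 and 385 CPM with vehicle and 244, 279 and 296 CPM with DOX. The 4 groups did not overlap, and the silenced mammospheres still held more MYC mRNA than 2D cells. DOX changed MYC by a log2 fold change of -0.60 ± 0.07 (SE, n = 3 per group, edgeR adjusted p = 3.08e-06), against a remaining difference from 2D cells of 1.69 ± 0.08 (edgeR adjusted p = 4.06e-12). Of the 14 members tested of the network of MYC, its partner MAX and the MXD and MXI repressors, 4 were features above 2D cells (6% of all genes) and all 4 remained (84% of all features above), among them MXI1 at 1.57 ± 0.09 (log2, against 2D cells).

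MYC silencing lowered 15 of 24 glycolysis genes relative to vehicle and raised 2 (26.5% and 30.3% of all genes, adjusted p below 0.1), and the genes that the study followed included members of both groups. SLC2A1, which encodes the glucose transporter GLUT1, was at 18.1, 17.4 and 15.5 CPM in 2D cells, 136, 129 and 125 CPM with vehicle and 51.7, 76 and 67.3 CPM after MYC silencing. HK2, the hexokinase that traps glucose in the cell, was at 32.3, 27.3 and 28.9 CPM, 263, 262 and 281 CPM and 91.1, 107 and 102 CPM in the same order. Both fell on silencing, to levels 2-fold and 2.69-fold lower than with vehicle (edgeR adjusted p = 2.66e-07 and 3.57e-11), yet both stayed above 2D cells, by 1.94 ± 0.11 and 1.76 ± 0.07 on the log2 scale. In contrast, ENO2 (a neuronal-type enolase) was 0.36 ± 0.07 and PFKL (liver-type phosphofructokinase) 0.88 ± 0.11 higher on the log2 scale with DOX than with vehicle (edgeR adjusted p = 4.10e-04 and 5.07e-06). ALDOA, an aldolase, differed from vehicle by 0.33 ± 0.19 (edgeR adjusted p = 0.154) and was at 13.2, 24.9 and 25.4 CPM, all above its 2D libraries at 4.98, 5.8 and 4.08 CPM. PFKL was not a feature, since it exceeded 2D cells by only 0.70 with vehicle, and it was called only after silencing at 1.58. The whole list of 24 glycolysis genes had a median log2 difference from 2D cells of 1.32 with vehicle and 0.95 with DOX, against 0.01 for all genes in both. Of the 24, 18 were above 2D cells and 5 below at an adjusted p below 0.1 in MYC-silenced mammospheres (all genes: 32.2% above and 29.3% below). Of its 9 features, 8 remained and 1 lay between the levels, near the 84% of all features above 2D cells. SLC2A3, the glucose transporter GLUT3, and SLC16A3, the lactate exporter MCT4, were among those that remained, at 4.23 ± 0.16 and 3.40 ± 0.28 above 2D cells on the log2 scale. Relative to vehicle, SLC2A3 fell 3.14-fold (edgeR adjusted p = 1.07e-10), and SLC16A3 differed by 0.14 ± 0.22 (log2, edgeR adjusted p = 0.620).

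**Figure D2:**
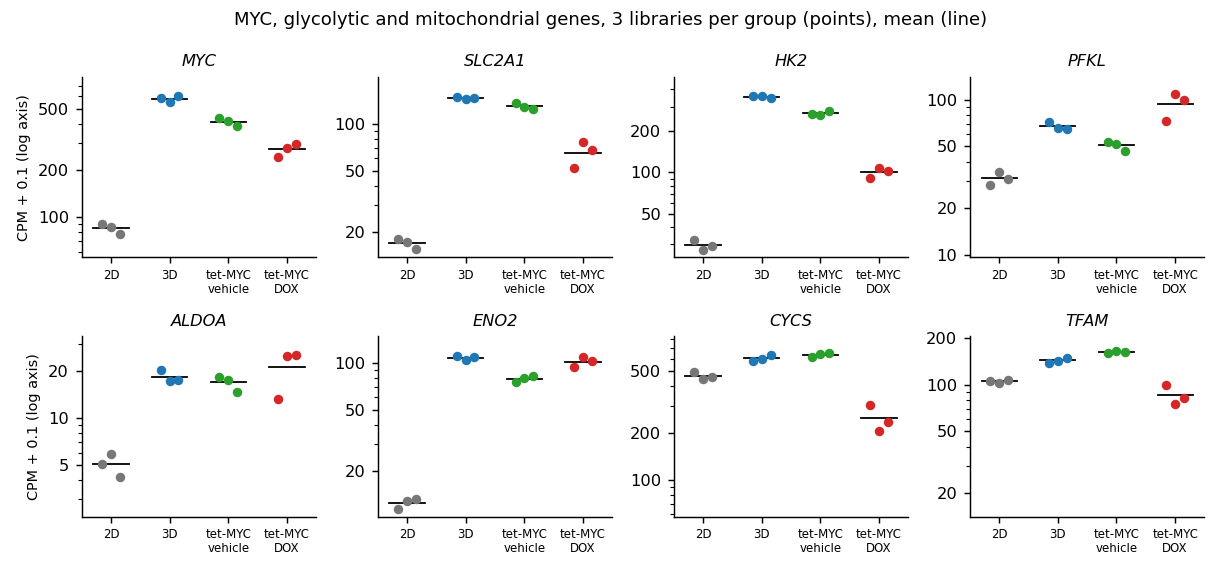
CPM per library (log axis, 0.1 added) of MYC, 5 glycolytic genes and the mitochondrial genes CYCS and TFAM in 2D cells, 3D cells and tet-MYCshRNA mammospheres given vehicle or DOX; points are the 3 libraries of a group and lines their means. SLC2A1 and HK2 fell with DOX but stayed above 2D cells, ENO2 and PFKL did not fall, and CYCS fell below its 2D level.

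Of the 33 gene lists examined, those with the highest median above 2D cells after MYC silencing were targets of the glucocorticoid receptor and feedback genes of the ERK pathway. Of the 14 glucocorticoid receptor targets, 12 were features above 2D cells (6% of all genes) and all 12 remained (84% of all features above), and their list had a median log2 difference from 2D cells of 3.45 with vehicle and 4.38 with DOX. FKBP5, a co-chaperone of the receptor, was at 0, 0 and 0.034 CPM in 2D cells, 1471, 1436 and 1496 CPM with vehicle and 4212, 4015 and 4036 CPM with DOX. ZBTB16, a transcriptional repressor, was at 0, 0.0345 and 0 CPM, 24.9, 25.7 and 26.5 CPM and 109, 122 and 123 CPM. PDK4, the kinase that shuts pyruvate out of the citric acid cycle, was not in this list but in that of fatty acid oxidation. It was at 0, 0.104 and 0.102 CPM, 131, 129 and 138 CPM and 1650.0, 1240.0 and 1408 CPM. All 3 genes were at or near 0 in 2D cells, and their DOX libraries lay above every vehicle library (edgeR adjusted p = 5.76e-12, 2.28e-12 and 1.31e-13).

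Of 13 ERK feedback genes tested, all 13 were above 2D cells at an adjusted p below 0.1 (32.2% of all genes). Of these, 10 were features above 2D cells (6% of all genes), all of which remained (84% of all features above). SPRY4, an inhibitor of receptor tyrosine kinase signaling, was at 4.59, 4.18 and 3.79 CPM in 2D cells, 242, 234 and 232 CPM with vehicle and 235, 274 and 273 CPM with DOX. DUSP4, a phosphatase of ERK, was 4.39 ± 0.09 above 2D cells on the log2 scale, and DOX differed from vehicle by -0.09 ± 0.08 (edgeR adjusted p = 0.389). The list median was 2.90 with vehicle and 2.85 with DOX. The cell cycle regulators CCND1 (cyclin D1) and CDKN1A (the inhibitor p21) also remained, at 6.43 ± 0.11 and 4.33 ± 0.13 above 2D cells on the log2 scale. With DOX, CCND1 changed by -0.92 and CDKN1A by 0.82 relative to vehicle (log2, edgeR adjusted p = 2.92e-08 and 1.62e-05).

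Hypoxia targets outside glycolysis remained at about the rate of all features above 2D cells (12 of 14 against 84%), and their list had medians of 1.83 with vehicle and 1.60 with DOX. NDRG1, a stress-response gene, was at 4.85, 7.77 and 5.5 CPM in 2D cells, 718, 710.3 and 745 CPM with vehicle and 407, 609 and 542 CPM with DOX. EGLN3, an oxygen sensor that marks HIF for degradation, was at 0, 0.0173 and 0.136 CPM, 12.5, 12.2 and 14 CPM and 8.1, 11.3 and 9.27 CPM. Both genes stayed far above 2D cells in each DOX library, and the DOX and vehicle libraries of NDRG1 differed by -0.48 ± 0.13 on the log2 scale. In the same class, DDIT4, a stress-induced brake on mTORC1, was 1.66 ± 0.10 above 2D cells, and ACSS2, which makes acetyl-CoA from acetate, 1.85 ± 0.09.

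Matrix genes moved in both directions. After MYC silencing, 4 of 16 collagens were above and 9 below 2D cells, and of 34 matrix and adhesion genes 17 were above and 15 below (32.2% and 29.3% of all genes, adjusted p below 0.1), with list medians of -0.79 and 0.30. COL6A1, a chain of collagen VI, was at 40.9, 45.4 and 41 CPM in 2D cells, 998, 888 and 863 CPM with vehicle and 3027, 4691 and 4084 CPM with DOX. Its partner COL6A2 was at 15.9, 21 and 18.1 CPM, 813, 722 and 667 CPM and 1978, 3420.0 and 2778 CPM. TIMP3, an inhibitor of matrix metalloproteinases, was at 4.32, 4.28 and 5.23 CPM, 129.8, 125 and 124 CPM and 342, 320.2 and 335 CPM. For all 3 genes the groups did not overlap (MYC-silenced libraries lay wholly above 2D libraries in 30.9% of all genes), and DOX raised them over vehicle by 2.10, 1.89 and 1.40 on the log2 scale (edgeR adjusted p = 9.68e-11, 7.17e-09 and 1.60e-11). LAMA4, a laminin chain, differed between DOX and vehicle by 0.00 ± 0.09 (log2, edgeR adjusted p = 1), at 92.9, 91.2 and 90.8 CPM with vehicle and 88.8, 92.2 and 94 CPM with DOX, against 0.838, 1.18 and 1.7 CPM in 2D cells. The third collagen VI chain, COL6A3, which was chosen after its values were seen, remained below the 2D level at -3.84 ± 0.22.

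Among the largest differences were genes that had no reads in 2D cells. F3, the tissue factor that starts coagulation (chr1:94529173-94541759), was at 0 in all 2D libraries and at 146, 142 and 137 CPM in MYC-silenced mammospheres, at least 2516-fold higher when 2D cells are set to 3 counts per library. STEAP2, a metalloreductase, and NOS2, the inducible nitric oxide synthase, were likewise at 0 in 2D cells, and with DOX they were at 122, 100.5 and 107 CPM and 43.7, 47.9 and 50.1 CPM. This gives at least 1951-fold and 839-fold. Vehicle libraries held 78.4, 81.5 and 87.3 CPM of F3, 73.5, 76.2 and 84.8 CPM of STEAP2 and 83.4, 72.7 and 67 CPM of NOS2. AKR1C1, an aldo-keto reductase that inactivates steroids, was at 0.0441, 0.242 and 0.306 CPM in 2D cells and 144, 137 and 142 CPM with DOX. AKR1C2 was at 0 in 2D cells and at 24.1, 23.3 and 28.5 CPM with DOX, at least 449-fold higher. AKR1C1 and AKR1C2 are near-identical in sequence, so reads may be split between them. The same class held CSF3, the granulocyte growth factor, at 8.22, 10.7 and 9.32 CPM with DOX, and KRT5, a basal keratin, at 54.5, 72.9 and 70.0 CPM, which had means of 0.0189 and 0.0226 CPM in 2D cells. KRT5 rose further on silencing (6.58, 4.97 and 3.84 CPM with vehicle, edgeR adjusted p = 2.50e-11), and CSF3 fell (19.9, 18.9 and 18.5 CPM with vehicle, edgeR adjusted p = 8.36e-07).

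Features below the 2D level that remained were led by genes read as 0 in MYC-silenced mammospheres. For 32 of these 917 genes the table gives no value in any tet-MYCshRNA library, and the empty cells were read as 0, which no other class relied on. OR2T8 (chr1:247920252-247923152) and OR2T33 (chr1:248269917-248277976), olfactory receptor genes that lie close together on chromosome 1, were at 163, 117 and 109 CPM and 22, 14.3 and 12 CPM in 2D cells and had 0 counts in every 3D library. CCDC3, a secreted coiled-coil protein, was at 20.7, 24.9 and 27.7 CPM in 2D cells and likewise at 0 in 3D cells. All 3 genes are among those with empty cells in the tet-MYCshRNA libraries, so their level there was not measured as such. If the empty cells stand for 0 counts, they were at least 2442-, 304- and 461-fold lower with DOX than in 2D cells, at 3 counts per library. ID4, an inhibitor of bHLH factors and a target of BMP signaling, was at 136, 131 and 136 CPM in 2D cells, at a mean of 0.00882 CPM with vehicle and at a counted 0 in all DOX libraries, at least 2537-fold lower. Its relative ID3 was at 209.9, 234 and 198 CPM in 2D cells, 0.0529, 0.0978 and 0.13 CPM with vehicle and 0.0806, 0.103 and 0.346 CPM with DOX. Both ID genes stayed below 1 CPM in every DOX library.

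Among genes of contractility and cell junctions that stayed low, CDH2 (N-cadherin) was at 441, 427 and 449 CPM in 2D cells, 21.4, 22.9 and 21.5 CPM with vehicle and 24.7, 26.1 and 27 CPM with DOX. TPM1, a tropomyosin of actin filaments, was at 272, 247 and 229 CPM, 16.6, 16.1 and 15.7 CPM and 22.2, 21.6 and 23.7 CPM. AJUBA, a LIM protein at junctions, was at 55.7, 47.9 and 45.4 CPM, 12.4, 12.2 and 11.2 CPM and 1.61, 2.44 and 2.81 CPM. Against vehicle, DOX changed CDH2 by 0.24 ± 0.06 and TPM1 by 0.48 ± 0.08 (log2), whereas AJUBA fell further from the 2D level, with a log2 fold change of -2.37 ± 0.14 (edgeR adjusted p = 4.34e-10). Of 17 contractile and YAP target genes tested, 8 were features below 2D cells (6.53% of all genes), of which 7 remained and 1 lay between the levels (65.3% of all features below remained). In serine and one-carbon metabolism, PHGDH, the first enzyme of serine synthesis, and ALDH1L2, a mitochondrial folate enzyme, remained below 2D cells, at -1.95 ± 0.09 and -1.51 ± 0.07 on the log2 scale. CCL2, a monocyte chemokine, was at 18.1, 14.4 and 11.6 CPM in 2D cells and at 0.0403, 0.0344 and 0.252 CPM with DOX.

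Of the stem cell markers, CD24, a surface protein that is typically low in breast cancer stem cells, was at 510.4, 573 and 598 CPM in 2D cells, 10.8, 12.2 and 10.3 CPM in 3D cells, 20.0, 16.5 and 17.2 CPM with vehicle and 57.4, 52.5 and 52.4 CPM with DOX. NOTCH3, a Notch receptor, was at 129.8, 138 and 132 CPM, 14.3, 14.1 and 13.8 CPM, 2.92, 2.92 and 3.71 CPM and 19.2, 28.1 and 23.1 CPM in the same order. Both genes rose from vehicle to DOX, by 1.60 ± 0.08 and 2.89 ± 0.12 on the log2 scale (edgeR adjusted p = 8.35e-11 and 6.40e-12), but no DOX library of either reached the 2D libraries. CD24 has processed copies elsewhere in the genome, which may take some of its reads. Of the 14 markers tested, DOX raised 7 over vehicle and lowered 5 (30.3% and 26.5% of all genes, adjusted p below 0.1). After MYC silencing 6 were above and 6 below 2D cells (32.2% and 29.3%). There were 5 features (12.5% of all genes), 2 above and 3 below 2D cells. Of these, 4 remained and 1 lay between the levels, near the 74.3% of all features.

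MUC1, which the study targets in a second shRNA line, was at 51.6, 56 and 53.5 CPM in 2D cells, 216, 221 and 181 CPM in 3D cells, 66.1, 66.6 and 73.2 CPM with vehicle and 139, 194 and 166 CPM with DOX. The vehicle-treated tet-MYCshRNA mammospheres thus stood near the 2D level, and DOX raised MUC1 by 1.28 ± 0.10 on the log2 scale (edgeR adjusted p = 1.13e-08), toward the 3D libraries. Its difference from 2D cells was 1.63 ± 0.10 after MYC silencing.

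The 25 features that returned to the 2D level from above included genes of the nucleolus, mitochondria and cell surface. LYAR, a nucleolar protein of ribosome production (chr4:4267701-4290154), was at 18.9, 16.4 and 16.2 CPM in 2D cells, 51.3, 49.2 and 54.1 CPM in 3D cells, 77.8, 73.4 and 74.1 CPM with vehicle and 12.5, 12.7 and 12.8 CPM with DOX. FERMT1, an integrin activator of the kindlin family (chr20:6074845-6123214), was at 11.5, 9.98 and 8.78 CPM, 53.3, 52.3 and 52 CPM, 73.5, 68.8 and 70.5 CPM and 11, 10.6 and 11.8 CPM. The DOX libraries of FERMT1 lay within or just above the 2D range, and those of LYAR lay below it. KLHL4, a kelch-family protein, was at 1.32, 1.21 and 1.32 CPM in 2D cells, 16.6, 16.8 and 15.3 CPM with vehicle and 2.06, 1.36 and 1.29 CPM with DOX. IL21R, a cytokine receptor chain, was at 2.91, 3.23 and 2.26 CPM, 11.3, 10.0 and 9.72 CPM and 1.91, 1.82 and 1.56 CPM. TFB1M, which methylates mitochondrial ribosomal RNA, was at 9.68, 10.1 and 11.2 CPM, 34.6, 32.7 and 34.8 CPM and 12.8, 14.3 and 11.8 CPM. The DOX libraries of IL21R lay below and those of TFB1M above their 2D libraries, within the 2-fold band. Against vehicle, DOX changed these 5 genes by -2.57, -2.67, -3.38, -2.56 and -1.39 on the log2 scale (highest edgeR adjusted p = 4.90e-10).

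From below, 102 features returned, among them genes of the matrix and of the interferon response. MATN2, the matrix protein matrilin 2, was at 124, 162 and 162 CPM in 2D cells, 27.3, 24.6 and 29.9 CPM in 3D cells, 4.41, 3.52 and 4.64 CPM with vehicle and 177, 184 and 183 CPM with DOX. Its difference from 2D cells was 0.28 ± 0.10 on the log2 scale, after a DOX change of 5.45 ± 0.11 (edgeR adjusted p = 8.92e-15). ZNF608, a zinc finger protein, was at 21, 19.4 and 19.2 CPM in 2D cells, 1.19, 1.28 and 1.24 CPM with vehicle and 14.9, 16.9 and 15.6 CPM with DOX. COL12A1, a fibril-associated collagen, was at 1348, 1429 and 1555 CPM, 265, 272 and 291 CPM and 910.1, 907 and 877 CPM. TIMP2, a metalloproteinase inhibitor like TIMP3, was at 228, 248 and 259 CPM, 30.6, 29.6 and 27.8 CPM and 147, 152 and 159.8 CPM. COL12A1 and TIMP2 came within the 2-fold band but stayed below every 2D library, while their relatives COL6A1 and TIMP3 moved away from the 2D level. SKIL, a repressor of TGF-beta signaling, was at 103, 91.6 and 106 CPM, 29.8, 32.1 and 35.7 CPM and 97, 72.3 and 74.9 CPM, and only 1 of its DOX libraries reached the 2D range.

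Interferon-stimulated genes, which encode antiviral sensors, effectors and signaling proteins, held more features that returned than any other of the 33 lists. Of 24 tested, 21 were below 2D cells in vehicle-treated mammospheres at an adjusted p below 0.1 (28.5% of all genes), and 15 were features below the 2D level (6.53%). After MYC silencing, 4 of the 15 had returned, 3 had overshot, 2 lay between the levels, 1 remained and 5 could not be placed. Over all features below 2D cells these shares were 7.26%, 1.28%, 22.9%, 65.3% and 3.21%. DOX raised 23 of the 24 over vehicle (30.3% of all genes) and lowered none. The list median was -3.17 with vehicle and 0.74 with DOX against 2D cells, with 16 above and 4 below the 2D level at an adjusted p below 0.1 (32.2% and 29.3% of all genes). In the S6 tet-MUC1shRNA mammospheres, given the same DOX dose, 2 of the 24 rose and 14 fell against their own vehicle (23.6% and 27.4% of all genes), with a median of -0.68. MHC class I presentation genes moved with them in direction: 13 of 14 were higher with DOX than with vehicle (30.3% of all genes) and none lower. Their median went from -0.89 to 0.30, and 5 were above and 3 below 2D cells after MYC silencing (32.2% and 29.3% of all genes).

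OAS3, an RNA sensor that activates RNase L, was at 9.86, 10.3 and 12.1 CPM in 2D cells, 1.16, 0.857 and 1.21 CPM in 3D cells, 0.9, 0.489 and 1.27 CPM with vehicle and 15.1, 16.4 and 12.1 CPM with DOX. PARP14, an ADP-ribosyltransferase of the interferon response, was at 37.7, 42.6 and 51.4 CPM, 7.07, 8.1 and 7.78 CPM, 5.8, 5.12 and 6.35 CPM and 78.8, 68.8 and 68.5 CPM. MX1, a dynamin-like GTPase that blocks viruses, was at 5.25, 7.6 and 8.42 CPM, 0.331, 0.351 and 0.432 CPM, 0.185, 0.215 and 0.293 CPM and 16.8, 19.9 and 11.2 CPM. In each gene both kinds of mammosphere without DOX lay below all 2D libraries, and the DOX libraries lay at or above them. OAS3 and PARP14 returned, at 0.43 ± 0.20 and 0.71 ± 0.11 against 2D cells, whereas MX1 overshot at 1.17 ± 0.19 (log2, edgeR adjusted p = 6.67e-05). The interval of MX1 crossed the edge of the 2-fold band, as did those of the 5 members that could not be placed.

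**Figure D3:**
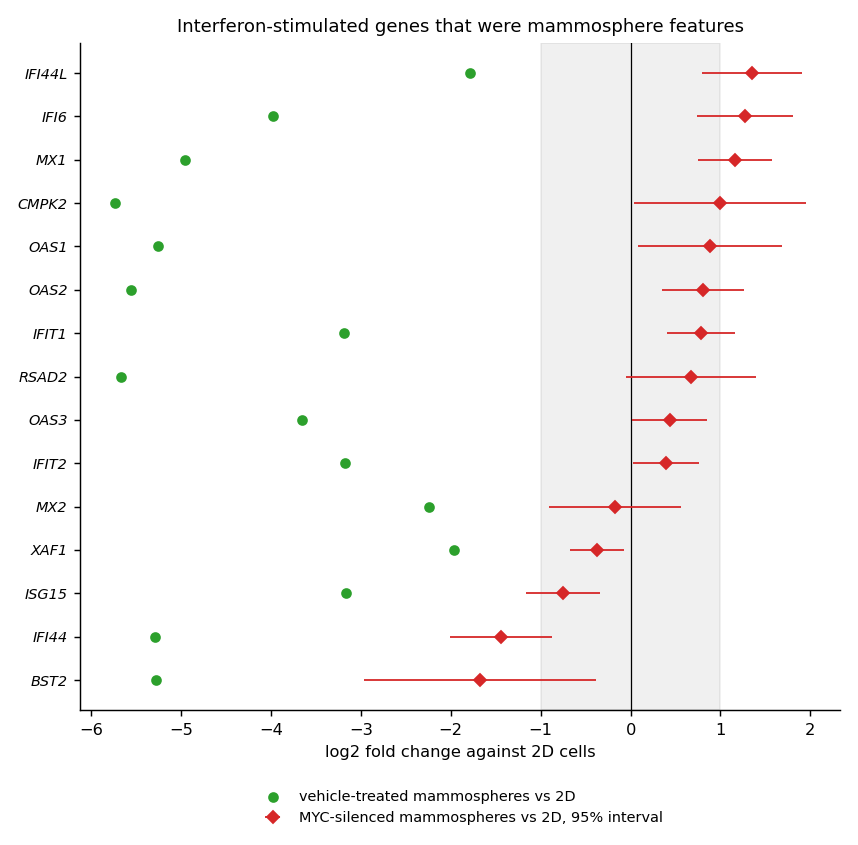
Log2 fold change against 2D cells of the 15 interferon-stimulated genes that were mammosphere features, in vehicle-treated mammospheres (circles) and MYC-silenced mammospheres (diamonds, bars are 95% intervals); the grey band is a 2-fold difference. All circles lie left of the band and most diamonds inside it or to its right, while BST2 and IFI44 stay left.

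Interferon-stimulated response elements have the core GAAANNGAAA. Its promoter matches are shown because DOX raised 23 of the 24 list members tested over vehicle. In RefSeq promoters (GRCh38.p14, 250 bases before to 50 after the start, both strands), 12 of the 19 list members with a promoter held it (63.2%), against 3.65% of all 27305 promoters and 2.82% of those of genes tested. The 12 include BST2 and IFI44, which stayed below 2D cells, and IFI27, which had too few counts to be tested. Among features that returned from below the share was 9 of 70 (12.9%), among those that remained below 24 of 556 (4.32%). Printed below are the 170 bases before the start of OAS3 (chr12:112938304-112938473, plus strand), PARP14 (chr3:122680669-122680838, plus strand) and IFI6 (chr1:27672193-27672362, minus strand, a gene that overshot), chosen after their values were seen. PARP14 is not a member of the list. Capitals mark the core.
OAS3: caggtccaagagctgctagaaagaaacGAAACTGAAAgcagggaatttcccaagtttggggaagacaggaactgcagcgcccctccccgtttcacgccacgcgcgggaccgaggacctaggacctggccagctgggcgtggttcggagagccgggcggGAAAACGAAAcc
PARP14: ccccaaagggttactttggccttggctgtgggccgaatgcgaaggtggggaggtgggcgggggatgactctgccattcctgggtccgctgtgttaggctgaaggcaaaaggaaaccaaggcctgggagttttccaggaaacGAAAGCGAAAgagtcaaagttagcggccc
IFI6: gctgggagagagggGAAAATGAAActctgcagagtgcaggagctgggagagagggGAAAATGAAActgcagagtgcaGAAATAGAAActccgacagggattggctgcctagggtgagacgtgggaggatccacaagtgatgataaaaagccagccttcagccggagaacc
OAS3 holds 2 cores, PARP14 1 and IFI6 3 in these windows, the first of OAS3 starting 143 bases and the second 12 bases before the start site. A match describes the sequence only and is not a measured binding site. IFI6, a mitochondrial protein induced by interferon, was at 3.09, 3.94 and 4.28 CPM in 2D cells, 0.318, 0.225 and 0.163 CPM with vehicle and 7.59, 12.7 and 7.07 CPM with DOX.

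Of the 18 features that overshot from below, 3 reached a mean of 10 CPM in any of the 4 groups, and besides MX1 these were CADM1 and SERPINI1. CADM1, a cell adhesion molecule (chr11:115169218-115504957), was at 8.73, 9.95 and 9.43 CPM in 2D cells, 1.05, 1.66 and 1.56 CPM in 3D cells, 0.45, 0.372 and 0.391 CPM with vehicle and 36.6, 31.4 and 34.6 CPM with DOX. SERPINI1, the protease inhibitor neuroserpin, was at 8.82, 10.5 and 10.2 CPM, 0.372, 0.351 and 0.278 CPM, 0.887, 0.958 and 0.977 CPM and 20.7, 20.8 and 19.7 CPM. Neither gene's groups overlapped, and the DOX libraries exceeded 2D cells by 1.87 ± 0.12 and 1.05 ± 0.11 on the log2 scale (edgeR adjusted p = 4.28e-10 and 1.65e-07). From above, 5 genes overshot (3 without 2D library 1): P2RX5, TERT, PTCHD4, LINC02383 and RNVU1-25, which were chosen after their values were seen. P2RX5, an ATP-gated channel, had means of 0.37 CPM in 2D cells, 5.67 with vehicle and 0.155 with DOX. TERT, the catalytic subunit of telomerase, had means of 0.101, 1.09 and 0.0219 CPM. All 5 were below 2 CPM in 2D cells, so their position below the 2D level rests on few reads. RNVU1-25 is a variant U1 RNA gene with near-identical copies, and its reads are uncertain.

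Genes of growth and division went from above the 2D level with vehicle to below it with DOX in several lists, by medians smaller than the 2-fold band. Of 36 ribosome biogenesis and nucleolar genes, 34 were above 2D cells and 1 below with vehicle at an adjusted p below 0.1 (30.6% and 28.5% of all genes), and DOX lowered 34 of them (26.5% of all genes) and raised none. Against 2D cells, 5 were then above and 23 below (32.2% and 29.3% of all genes), and the list median went from 0.70 to -0.36. Only LYAR among them was a feature under the 1.5 threshold. Of 20 nucleotide synthesis genes, 19 were lowered by DOX and none raised (26.5% and 30.3% of all genes). Their medians were 0.49 with vehicle and -0.49 with DOX, and 3 were above and 14 below 2D cells after it (32.2% and 29.3%). For 32 DNA replication genes the medians were 0.36 and -0.41, with 31 lowered by DOX and none raised (26.5% and 30.3%). After it, 4 of the 32 were above and 24 below 2D cells (32.2% and 29.3%). In mitosis the median was already below the 2D level with vehicle: for 32 genes the medians were -0.19 and -1.10, and 31 were below 2D cells after MYC silencing (29.3% of all genes) and none above. MKI67, the proliferation marker Ki-67, which was chosen after its values were seen, was at 819.5, 763 and 739 CPM in 2D cells, 845, 850.0 and 879 CPM with vehicle and 413, 458 and 471 CPM with DOX. In bulk RNA, fewer dividing cells and less RNA of these genes per cell cannot be told apart.

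The E-box CACGTG, the best-known MYC and MAX motif, was in 11 of the 31 ribosome biogenesis promoters found in RefSeq (35.5%), against 7.43% of all promoters and 9.49% of those of genes tested. Among features that returned from above it was in 1 of 17 (5.88%), and among those that remained above in 55 of 623 (8.83%). The 100 bases before the start are shown for the 3 list members whose E-box lay wholly before it, NAT10 (chr11:34105529-34105628), UTP4 (chr16:69132549-69132648) and UTP20 (chr12:101280005-101280104), all on the plus strand, with the E-box in capitals.
NAT10: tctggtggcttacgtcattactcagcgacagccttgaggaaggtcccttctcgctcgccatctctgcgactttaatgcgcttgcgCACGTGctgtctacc
UTP4: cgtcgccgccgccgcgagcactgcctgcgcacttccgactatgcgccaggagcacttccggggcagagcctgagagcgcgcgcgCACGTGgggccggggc
UTP20: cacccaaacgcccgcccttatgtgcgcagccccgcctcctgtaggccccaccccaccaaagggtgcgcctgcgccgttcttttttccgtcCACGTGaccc
NAT10, which acetylates ribosomal RNA, was at 45.8, 42.6 and 43.4 CPM in 2D cells, 117, 105 and 103 CPM with vehicle and 45.9, 50.9 and 51 CPM with DOX. UTP20, a component of the small-subunit processome, was at 164, 139 and 140.4 CPM, 185, 176 and 185 CPM and 110.1, 109 and 106 CPM. After silencing NAT10 stood at 0.17 ± 0.07 and UTP20 at -0.44 ± 0.07 relative to 2D cells on the log2 scale. UTP4, of the same processome, differed from 2D cells by 0.22 ± 0.11 (edgeR adjusted p = 0.108).

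**Figure D4:**
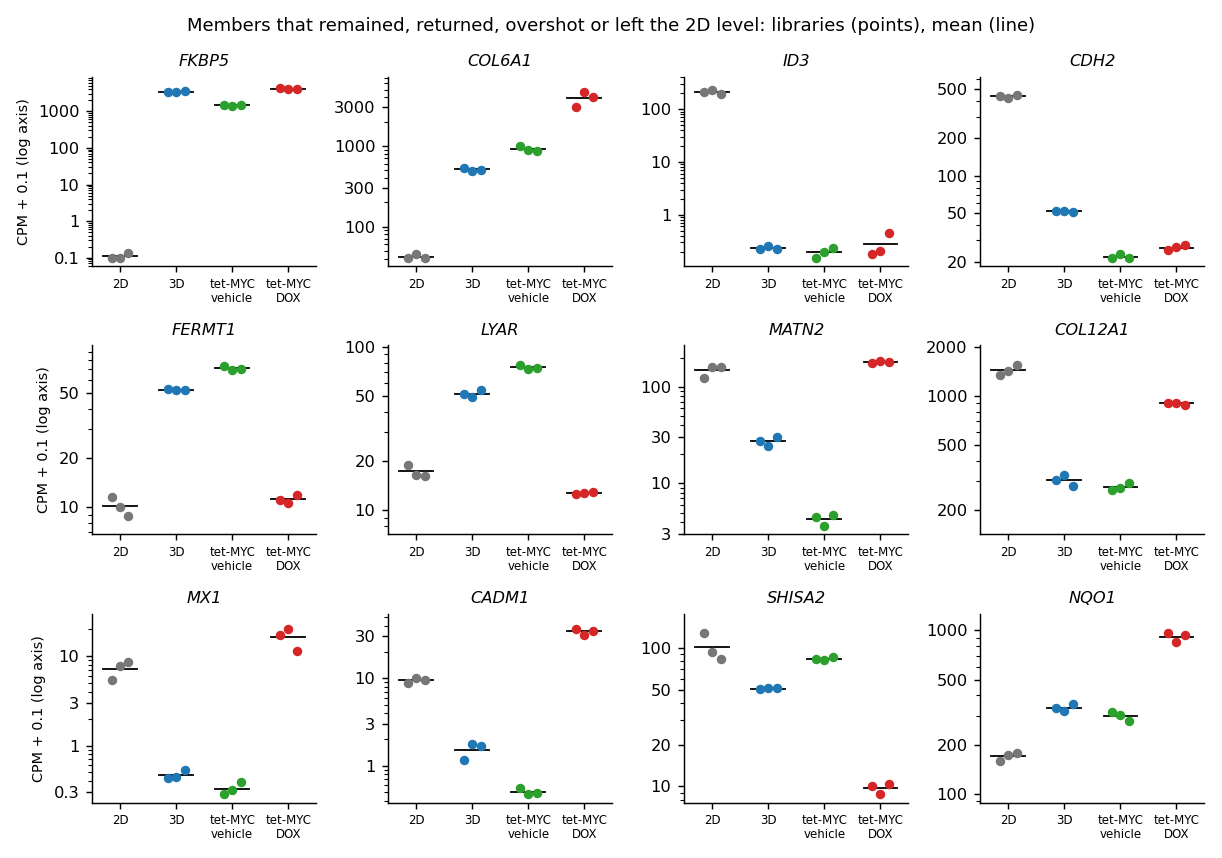
CPM per library (log axis, 0.1 added) of 12 genes in 2D cells, 3D cells and tet-MYCshRNA mammospheres given vehicle or DOX; points are the 3 libraries of a group and lines their means. In the top row DOX left the gene far from 2D cells, in the middle row DOX libraries come within 2-fold of 2D cells, and in the bottom row MX1 and CADM1 pass the 2D level while SHISA2 and NQO1 leave it.

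Mitochondrial genes that the study followed, and the respiratory chain, were compared next. CYCS (cytochrome c) was at 491, 447 and 462 CPM in 2D cells, 614, 642 and 657 CPM with vehicle and 302, 207 and 235 CPM with DOX, which put it -0.91 ± 0.10 against 2D cells (log2, edgeR adjusted p = 2.99e-07). CYCS has many processed pseudogenes, so part of its reads may be assigned elsewhere. TFAM, the packaging factor of mitochondrial DNA (mtDNA), was at 106, 103 and 106 CPM, 161, 164 and 162 CPM and 99.4, 74.8 and 81.6 CPM. MTERF3, a regulator of mtDNA transcription, was at 51.1, 54 and 52.7 CPM, 85.4, 85 and 89.4 CPM and 54.6, 47.5 and 49.3 CPM. SDHD, a subunit of complex II, was at 67.5, 64.8 and 74 CPM, 93.4, 89.6 and 95.8 CPM and 78.1, 60.0 and 60.5 CPM. All 4 were higher with vehicle than in 2D cells and fell with DOX, CYCS and TFAM to below the 2D libraries and MTERF3 and SDHD to -0.06 ± 0.07 and -0.06 ± 0.09 (edgeR adjusted p = 0.487 and 0.633). Of 44 nuclear-encoded respiratory chain genes, none was a feature, 32 fell and 1 rose with DOX (26.5% and 30.3% of all genes), and 26 were below and 6 above 2D cells after it (29.3% and 32.2%). The 13 mtDNA-encoded messenger RNAs all had intervals within the 2-fold band after MYC silencing (42.9% of all genes), with a median of 0.10 against -0.21 with vehicle, and 11 of 13 rose with DOX (30.3% of all genes). Of the 13, 5 were above and 2 below 2D cells after it (32.2% and 29.3%). All mtDNA-encoded genes in the table together took 5.22% to 5.24% of counts in 2D cells, 2.31% to 2.72% in 3D cells, 3.37% to 4.08% with vehicle and 3.96% to 5.07% with DOX.

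Genes that left the 2D level on silencing were by definition not features. The 2-fold band still allowed smaller differences from 2D cells with vehicle. On the log2 scale these were 0.82 for NQO1 and -0.53 for LAMB1, in the direction later taken with DOX. For PDE4A the difference was 0.29, opposite to the direction taken with DOX. Upward, LRP1B, a lipoprotein receptor-related protein, was at 3.4, 3.44 and 4.65 CPM in 2D cells, 4.57, 4.03 and 5 CPM with vehicle and 58.6, 53.4 and 49.98 CPM with DOX. CADM2, an adhesion molecule related to CADM1, was at 5.54, 5.89 and 6.15 CPM, 7.53, 6.83 and 9.03 CPM and 80.9, 66.1 and 72.1 CPM. The matricellular gene CCN5 and the phospholipase A2 receptor gene PLA2R1 rose to 3.49 ± 0.15 and 3.03 ± 0.17 above 2D cells on the log2 scale. CCN5, LRP1B and CADM2 were also above 2D cells in 3D cells, by 4.34, 2.19 and 2.17 on the log2 scale.

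Among lysosomal and antioxidant genes, several left the 2D level upward. CTSD (cathepsin D) was at 22.2, 26.6 and 23.2 CPM in 2D cells, 30.6, 27.5 and 24.7 CPM with vehicle and 94.3, 129.5 and 135 CPM with DOX. GAA, which breaks down glycogen in lysosomes, was at 2.93, 4.21 and 2.82 CPM, 3.12, 2.55 and 3.26 CPM and 12.6, 22.6 and 20.8 CPM. Of 24 lysosome genes, DOX raised 22 over vehicle and lowered 1 (30.3% and 26.5% of all genes), and 19 were above and 3 below 2D cells after it (32.2% and 29.3%), with list medians of -0.23 and 0.77. NQO1, a quinone reductase, was at 158, 173 and 177 CPM, 315, 302 and 280.4 CPM and 966, 848 and 940.0 CPM, and HMOX1, heme oxygenase 1, at 56.7, 57.8 and 54.3 CPM, 60.9, 59.5 and 53.5 CPM and 160.4, 196 and 183 CPM. In 3D cells, CTSD was 1.13 and NQO1 0.99 above 2D cells on the log2 scale (edgeR adjusted p = 4.10e-07 and 1.13e-09). NQO1 and HMOX1 are targets of NRF2, and of 19 NRF2 targets and aldo-keto reductases 13 were above and 2 below 2D cells after MYC silencing (32.2% and 29.3% of all genes). LTBP2, a latent TGF-beta binding protein, and TM7SF2, a sterol reductase, left the 2D level upward at 1.72 ± 0.08 and 1.58 ± 0.14, and in 3D cells they stood at -0.53 and 1.15 against 2D cells.

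Downward, PDE4A, a cyclic AMP phosphodiesterase, was at 23.6, 25.8 and 24.5 CPM in 2D cells, 31.6, 30.1 and 28.6 CPM with vehicle and 0.927, 1.75 and 1.56 CPM with DOX. SHISA2, an inhibitor of WNT and FGF receptor maturation, was at 129, 93.6 and 83.8 CPM, 83, 81.5 and 85.6 CPM and 9.91, 8.62 and 10.4 CPM. MYPN, the sarcomere protein myopalladin, was at 31.1, 22.2 and 19.6 CPM, 27.7, 27 and 28 CPM and 2.2, 2.47 and 2.55 CPM, and LAMB1, a laminin beta chain, at 279, 282 and 292 CPM, 196, 197 and 196 CPM and 44.8, 52.8 and 49.6 CPM. In all 4 genes the DOX libraries lay below every other library of the 4 groups (they lay wholly below 2D libraries in 29% of all genes). In 3D cells, MYPN and SHISA2 already stood at -1.43 and -1.01 against 2D cells on the log2 scale (edgeR adjusted p = 6.69e-08 and 9.71e-07), and PDE4A and LAMB1 at -0.36 and -0.04. PRPS1, which makes the ribose donor of nucleotides, and MTHFD1L, a mitochondrial folate enzyme, fell to -1.59 ± 0.07 and -1.69 ± 0.07 relative to 2D cells (edgeR adjusted p = 5.75e-12 and 8.47e-13). RNVU1-31, a variant U1 RNA gene with near-identical copies, was at 20.9, 22.4 and 24.2 CPM in 2D cells, 60.7, 49.9 and 89.1 CPM in 3D cells and fell from 21.1, 16.6 and 9.76 CPM with vehicle to 0.201, 0.275 and 0.22 CPM with DOX, and its reads are uncertain.

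**Figure D5:**
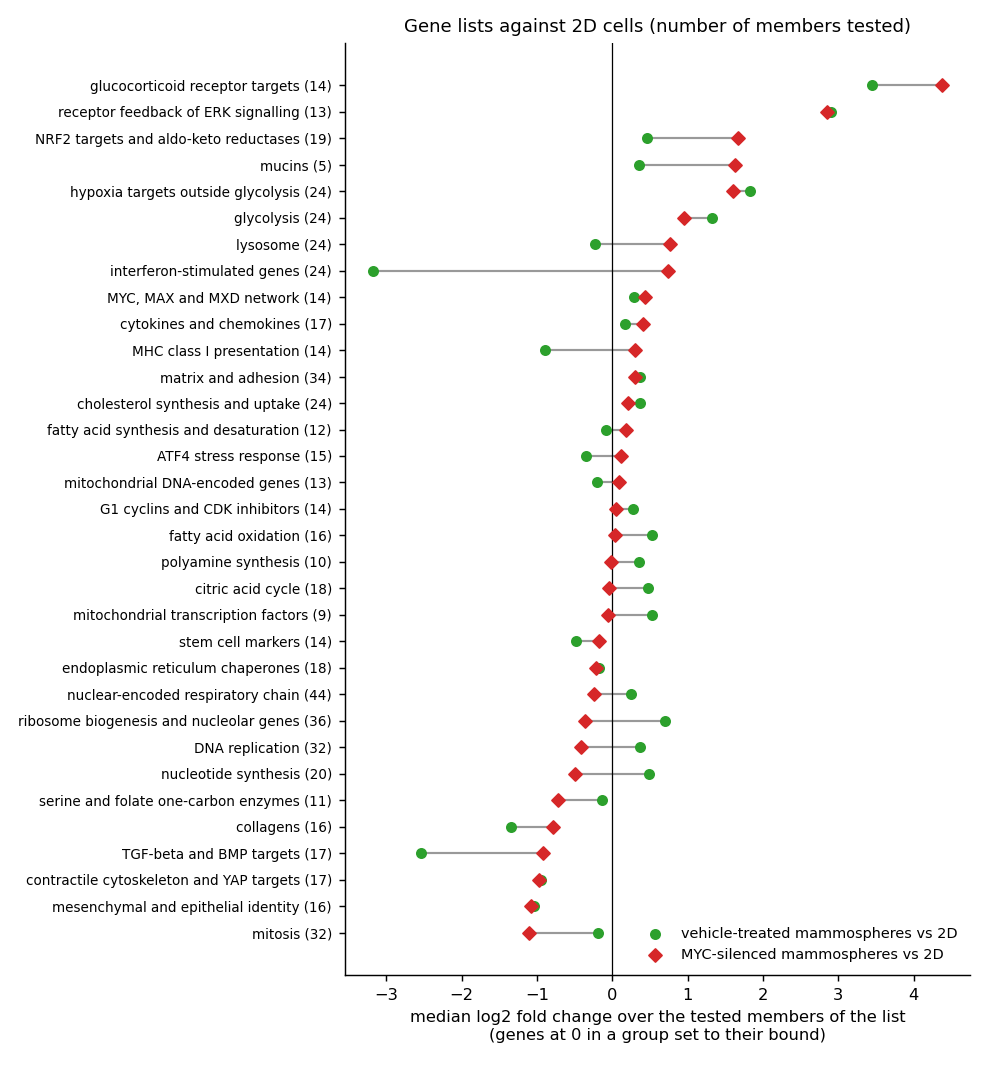
Median log2 fold change against 2D cells of 33 gene lists in vehicle-treated (circles) and MYC-silenced (diamonds) mammospheres, with the number of members tested. Genes with at most 3 counts in every library of a group, which the axis label calls genes at 0, are set to their bound. Glucocorticoid targets and ERK feedback genes stay far right, interferon-stimulated genes move from -3.17 to 0.74, and the lists of ribosome biogenesis, nucleotide synthesis and DNA replication move from right to left of 0.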

How the data were processed

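Messenger RNA of BT-549 cells was sequenced as stranded TruSeq libraries. The deposited table holds raw counts per gene, which the authors made by aligning reads to GRCh38 with STAR (2.7.3a per the labels) and counting them per gene. The annotation release is not given in the sources used here, and how long these mammospheres received DOX is not stated there either. Empty cells were read as 0 counts. They were the same 6498 genes in all 2D and 3D libraries and the same 5761 genes in all tet-MYCshRNA libraries, so the values of these blocks may come from separately made tables.

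The 12 libraries of the 4 groups were fitted with edgeR 4.0.16 (R 4.3.3), with TMM factors, filterByExpr and the quasi-likelihood test without covariates. This left 21506 of 42339 genes, and the common biological coefficient of variation was 0.113. Adjusted p is Benjamini-Hochberg over all genes tested. CPM values use TMM-scaled library sizes, and SEs and 95% intervals are Wald values from the same fit. The method was tested on simulated data. Where a group had 0 counts in every library, 3 counts per library were used for a bound, and bounds cover counting error only. Named genes were the 4 largest of each class and direction with at least 10 CPM in a group mean and libraries that do not overlap, up to 2 of each class per list, and the genes that the study follows. The members and the 33 gene lists (630 of 660 entries tested) were chosen with earlier results of these data known. Same-numbered libraries did not deviate together (correlations of -0.136 to 0.129), so no pairing was used. Promoters were matched by symbol to RefSeq (GRCh38.p14).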

Additional observations from a re-analysis of the deposited data

Results flagged for a closer look

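The DOX response of the 15 named genes that returned or overshot was set beside that in the S6 tet-MUC1shRNA mammospheres, an analysis chosen after seeing the data, with edgeR's quasi-likelihood fit over all 21 libraries. These genes were chosen by classes that require a large change with DOX in the MYC line, so a difference between the lines was largely fixed by that choice and the values are a description, not a test. The lines also differ in passage and in the shRNA. In 11 of the 15 the difference of the log2 changes (MYC line minus MUC1 line) was beyond 1.5. MATN2 changed by 5.45 in the MYC line and -1.59 in the MUC1 line, a difference of 7.04 ± 0.15 (SE). MX1 changed by 6.12 and -1.74, a difference of 7.85 ± 0.44. CADM1 changed by 6.40 and 0.29, a difference of 6.11 ± 0.26. The differences were 3.93 for ZNF608, 3.70 for OAS3, 3.11 for PARP14, 2.63 for TIMP2 and 2.15 for SERPINI1. For genes that fell, they were -4.89 for FERMT1, which rose by 2.22 in the MUC1 line, -3.73 for KLHL4 and -2.03 for LYAR. The 4 within 1.5 were TFB1M at -1.24, COL12A1 at 1.12, SKIL at -0.72 and IL21R at -0.54. The signs of all 15 were the same with RLE factors, library sizes alone and a replicate block.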

How the results depend on the processing

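The settings tried were DESeq2, RLE factors, library sizes alone, scaling without mtDNA genes, other filters, thresholds and feature rules, pairwise fits, all 21 libraries, a replicate block, and each library left out. Of 1684 refitted values of the 81 named genes, none reversed in direction where the main fit or the refit had an adjusted p below 0.1. Sign changes of values that missed this threshold in both fits were not counted. The value was the change on MYC silencing for genes that returned, and the difference from 2D cells for the others. Of the refitted values, 1 newly passed the threshold, SDHD against 2D cells without DOX library 1, at -0.19. A filter of at least 10 counts in every library, which drops genes silent in 1 group, left 1665 called genes, 1092 features, 750 that remained and 8 that overshot. A log2 threshold of 1 gave 6014 called genes, 424 features that returned, 61 that overshot and 640 genes that left the 2D level. With features taken from 3D cells alone, 267 returned and 80 overshot, and with those from vehicle alone 254 and 72. A 1.5-fold band left 46 that returned, an overshoot threshold of 1.5 left 9, and pairwise fits of 6 libraries left 15 that overshot. The share of features that remained was 61.9% to 75.2% across all settings that gave it. Leaving out 1 library gave 4143 to 4362 called genes, 2717 to 2858 features, 2027 to 2126 that remained, 111 to 130 that returned, 18 to 27 that overshot (3 to 7 of them from above, lowest without 2D library 1), 64 to 107 that could not be placed (highest without DOX library 3) and 167 to 221 that left the 2D level. The list medians against 2D cells kept their sign under every scaling but those of fatty acid oxidation and of G1 cyclins and CDK inhibitors, which lay near 0. The replicate block gave 3998 called genes and 1994 features that remained, and changed no count by over 1.5 times.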
